A study of Mus musculus with 20 samples.

Results

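The Cyp2c cluster of mouse chromosome 19 was described through 10 genes, Cyp2c29, Cyp2c37, Cyp2c38, Cyp2c39, Cyp2c40, Cyp2c50, Cyp2c54, Cyp2c67, Cyp2c68 and Cyp2c70, taken by gene symbol from the count tables of 20 livers. They are 10 of the 22298 genes listed, and all 10 were among the 12342 genes with enough reads to be tested. All animals were male and homozygous for the Lepr db mutation (db/db), a leptin receptor defect that causes obesity and diabetes. Each was injected in the tail vein at 5 weeks with AAV8, a liver-tropic virus, and all groups therefore share the db/db genotype and the virus. AAV8-Vec carried a non-targeting shRNA and AAV8-PPARγ-shRNA carried 4 shRNAs against Pparg, and no source used here restricts either vector to a cell type by its promoter. Vehicle (CMC-Na) or benzbromarone (BBR) at 25 mg per kg was given by gavage once daily for 4 weeks. BBR is a uricosuric drug used for gout. The 4 groups of 5 mice were Vec (AAV8-Vec, vehicle), Vec+BBR (AAV8-Vec, BBR), shRNA (AAV8-PPARγ-shRNA, vehicle) and shRNA+BBR (AAV8-PPARγ-shRNA, BBR), and each library is liver tissue of 1 mouse.

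Cytochromes P450 of the Cyp2c subfamily are haem enzymes of the endoplasmic reticulum that take electrons from P450 reductase and oxidise drugs, steroids, retinoids and fatty acids. Many of the mouse enzymes turn arachidonic acid into epoxyeicosatrienoic acids or hydroxyeicosatetraenoic acids, lipid mediators that act on vessels and inflammation. In liver the genes are expressed mainly in hepatocytes, several of them more strongly around the central vein, and they are known targets of the nuclear receptors CAR (Nr1i3), PXR (Nr1i2) and HNF4α and of sex-dependent growth hormone secretion. The mouse genes arose by tandem duplication, so that neighbours are close copies and reads can fit more than 1 of them.

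On GRCm38 the first of the 10 genes along the chromosome is Cyp2c29, at chr19:39269405-39330713 on the plus strand, after Cyp2c55, Cyp2c65 and Cyp2c66. Cyp2c38 (chr19:39389556-39463075, minus strand) and Cyp2c39 (chr19:39510862-39568529, plus strand) follow. Next come Cyp2c67 (chr19:39608842-39649051), Cyp2c68 (chr19:39688834-39741054) and Cyp2c40 (chr19:39767071-39812814), all on the minus strand, and then Cyp2c69. Cyp2c37 (chr19:39992424-40012243, plus strand), Cyp2c54 (chr19:40037940-40073827, minus strand) and Cyp2c50 (chr19:40089688-40113950, plus strand) form the next block, and Cyp2c70 (chr19:40153353-40187333, minus strand) is the last. The blocks are also the families of closest sequence. Coding sequences were 89.1% to 94.2% identical among Cyp2c29, Cyp2c38 and Cyp2c39, and 95.1% to 96.1% identical among Cyp2c37, Cyp2c50 and Cyp2c54. Cyp2c67 and Cyp2c68 were 97.1% identical, and Cyp2c40 matched them at 92.2% and 92.6%. Cyp2c70 stood apart, at 62.6% to 69.4% identity with the other 9 genes.

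How much sequence tells the neighbours apart decides how far their counts can be read as separate. The stretches below are those with the most differing positions in each block, so they show more difference than is typical. Each is 60 coding bases, 5′ to 3′, of the GENCODE M21 transcript, and capitals mark the positions that differ between the genes set side by side. In Cyp2c29 (exonic sequence, coding bases 279 to 338) and its 2 neighbours 17 of the 60 positions differ:

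Cyp2c29: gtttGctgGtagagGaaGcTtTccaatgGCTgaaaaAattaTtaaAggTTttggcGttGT
Cyp2c38: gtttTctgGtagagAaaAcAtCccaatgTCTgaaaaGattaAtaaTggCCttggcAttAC
Cyp2c39: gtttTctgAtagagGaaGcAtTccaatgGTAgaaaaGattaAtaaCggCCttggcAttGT

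Over the whole coding sequence of 1470 bases 196 positions differ among these 3 genes, and the longest run without a difference is 51 bases. In the block of Cyp2c37, Cyp2c50 and Cyp2c54 the richest stretch (coding bases 791 to 850) has 13 such positions, 98 of the 1470 differ in all, and the longest identical run is 89 bases:

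Cyp2c37: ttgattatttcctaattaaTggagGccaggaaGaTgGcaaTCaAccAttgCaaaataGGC
Cyp2c50: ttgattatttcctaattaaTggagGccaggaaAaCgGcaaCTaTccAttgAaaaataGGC
Cyp2c54: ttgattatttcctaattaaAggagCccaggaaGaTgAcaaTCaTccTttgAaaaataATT

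Cyp2c40 is not set beside its neighbours, because its coding sequence is of another length, 1560 bases. Cyp2c67 and Cyp2c68 differ at 42 of 1473 coding positions only, 8 of them between coding bases 1060 and 1119, and share a run of 149 bases:

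Cyp2c67: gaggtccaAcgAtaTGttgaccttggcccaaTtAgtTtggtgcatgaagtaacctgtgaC
Cyp2c68: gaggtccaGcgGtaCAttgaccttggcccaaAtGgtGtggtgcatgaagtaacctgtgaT

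The deposited counts carry the trace of this sharing. They are expected counts, in which a read that fits several genes is divided between them, so that a fractional value marks divided reads. Counts of Cyp2c29 and Cyp2c70 were whole in all 20 libraries. Cyp2c38 and Cyp2c39 had a fractional count in 5 libraries each, Cyp2c54 in 19, and Cyp2c37, Cyp2c40, Cyp2c50, Cyp2c67 and Cyp2c68 in all 20. Of all genes tested, 81.4% had no fractional count in any library and 7.40% had one in at least 19. The transcripts themselves were compared too. Of all 100-base windows of the transcript, 44.1% in Cyp2c40, 23.7% in Cyp2c67 and 19.8% in Cyp2c68 occurred unchanged in a transcript of another gene, against 9.40% in Cyp2c50, 7.60% in Cyp2c54, 4.70% in Cyp2c37 and 0 in Cyp2c29, Cyp2c38, Cyp2c39 and Cyp2c70. The levels of Cyp2c29 and Cyp2c70 are therefore free of divided reads, and those of the Cyp2c67, Cyp2c68 and Cyp2c40 block depend most on how the reads were divided.

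**Figure D1:**
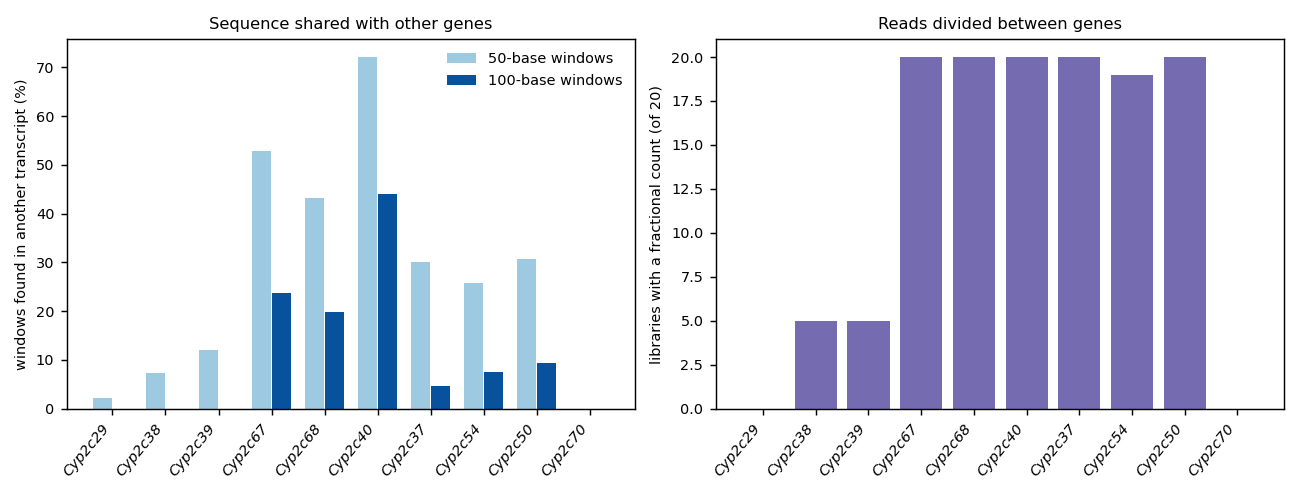
Left, the share of 50-base and 100-base windows of each member's transcript that occur in a transcript of another gene (%). Right, the number of the 20 libraries in which the member's deposited count was fractional. Members stand in their order along the chromosome, and Cyp2c70 is at 0 in both plots while Cyp2c40 is highest in the left one.

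Total counts ran from 17432904 to 25024099 per library, and the members' own counts from 249.2 for Cyp2c39 in 1 library to 95578 for Cyp2c29 in another, so that counting error is small beside the differences between mice. Pparg, the targeted gene, stood at 16.4, 20.1, 35.9, 19.4 and 32.1 CPM in Vec (counts scaled to library size) and at 34.8, 29.8, 28.0, 28.1 and 38.3 in Vec+BBR. It stood at 7.31, 6.53, 5.96, 3.24 and 5.63 CPM in shRNA and at 11.4, 9.99, 21.8, 18.9 and 7.19 in shRNA+BBR. The knockdown groups did not overlap with their vector controls, and Pparg was higher in shRNA+BBR than in shRNA by 1.28 ± 0.28 on the log2 scale (SE, adjusted p = 0.00773). One control mouse, Vec replicate 3, stood apart, and not for the cluster alone. On the first principal component of log2 CPM, the main axis of variation over all genes tested, it lay at 19.76. The other Vec mice lay between -34.21 and 2.2 on this axis, and the Vec+BBR mice between 25.96 and 33.45. Vec replicate 3 was the lowest of the 5 Vec mice for 8 of the 10 members. In Vec+BBR, replicate 1 was the highest of its group for 9 members and replicate 2 the lowest for 9.

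Levels are compared between genes in FPKM, fragment counts scaled to transcript length and library size. In Vec livers Cyp2c50 stood at 1140 ± 321 FPKM and Cyp2c29 at 1129 ± 318 (SD, n = 5), ranks 73 and 74 of the 22298 genes. Cyp2c54 followed at 447 ± 174, Cyp2c37 at 308 ± 165, Cyp2c68 at 188 ± 31.5, Cyp2c70 at 153 ± 47.2 and Cyp2c67 at 122 ± 27.7. Cyp2c40 (55.6 ± 22.7), Cyp2c38 (41.9 ± 12.3) and Cyp2c39 (8.94 ± 1.90) were the lowest. Neighbours in this order overlapped in range, except that Cyp2c29 lay above Cyp2c54 and Cyp2c38 above Cyp2c39 in all mice.

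The order changed with BBR. In Vec+BBR livers Cyp2c29 was highest, at 402 ± 62.3 FPKM, and Cyp2c50 was next at 217 ± 65.1. Cyp2c67 (142 ± 17.7) and Cyp2c68 (139 ± 19.3) took the next places, above Cyp2c70 (70.0 ± 6.78), Cyp2c38 (64.5 ± 8.93), Cyp2c37 (62.6 ± 19.2), Cyp2c54 (36.6 ± 14.2), Cyp2c40 (28.5 ± 14.4) and Cyp2c39 (8.47 ± 1.57). In this group the ranges of neighbours overlapped except between Cyp2c68 and Cyp2c70. In shRNA livers Cyp2c29 (1624 ± 552), Cyp2c50 (1300.2 ± 269), Cyp2c54 (429 ± 80.8) and Cyp2c37 (273 ± 98.9) led, and in shRNA+BBR livers Cyp2c29 (783 ± 276), Cyp2c50 (536 ± 183), Cyp2c68 (165 ± 10.4) and Cyp2c54 (125 ± 82.8).

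Summed over the 10 members, the level was 3593 FPKM in Vec (SD 926, range 2006 to 4397), 1171 in Vec+BBR (SD 192, range 952 to 1466), 4295 in shRNA (SD 757, range 3222 to 5026) and 2043 in shRNA+BBR (SD 549.8, range 1630.3 to 2904). Sums of Vec+BBR mice lay below all Vec sums. The makeup of the sum differed too. Cyp2c54 gave 12.0% ± 2.63 of it in Vec and 3.06% ± 0.784 in Vec+BBR, and Cyp2c50 gave 31.6% ± 2.20 and 18.4% ± 3.11. Cyp2c67 went the other way, from 3.8% ± 2.07 to 12.3% ± 1.65, as did Cyp2c38, from 1.33% ± 0.804 to 5.54% ± 0.478 (SD, n = 5). A share also rises for a member that falls less than the sum. Cyp2c68 went from 5.41% ± 0.976 to 11.9% ± 1.07 and Cyp2c70 from 4.29% ± 0.675 to 6.05% ± 0.652, though the levels of both were lower. Cyp2c29 kept about the same place, with 31.6% ± 4.62 and 34.4% ± 2.64.

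**Figure D2:**
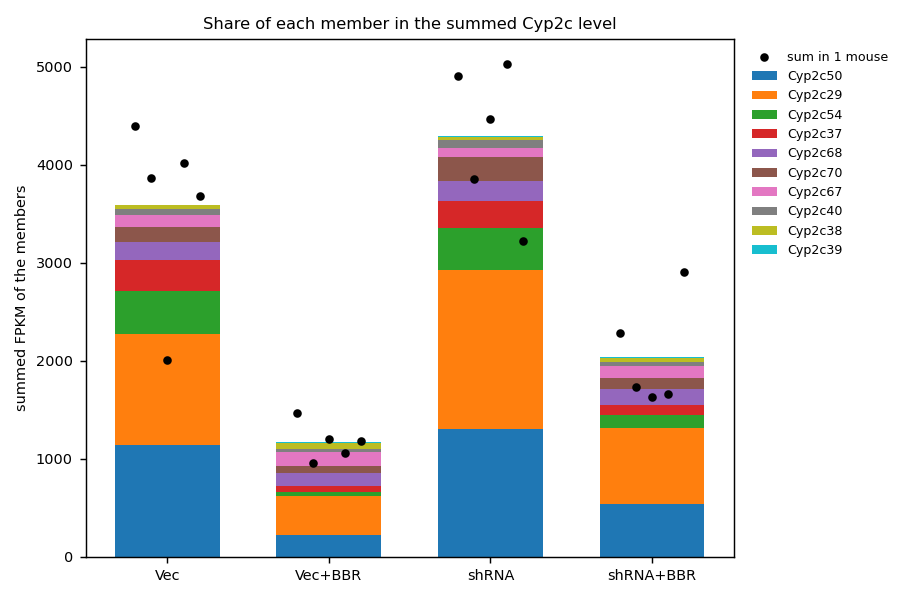
Summed FPKM of the 10 members in each group. Bars are stacked group means of the members and points are the sums of single mice. The sum was 3593 FPKM in Vec and 1171 in Vec+BBR, and the segments of Cyp2c50 (1140 against 217 FPKM) and Cyp2c29 (1129 against 402 FPKM) lost most height.

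The first comparison asks what BBR does to the cluster when Pparg is intact (Vec+BBR against Vec). BBR lowered 6 of the 10 members, Cyp2c29, Cyp2c37, Cyp2c50, Cyp2c54, Cyp2c68 and Cyp2c70, by the quasi-likelihood test of edgeR at an adjusted p under 0.05, and raised none. Of all genes tested 7.88% were called lower and 7.58% higher, 15.5% in all. The median log2 fold change was -1.16 over the members and -0.01 over all genes. In bulk liver, fewer cells of a type and less RNA per cell cannot be told apart. The p-values of this fit rest on the spread between mice within groups, pooled over all 4 groups of 5 mice and drawn towards that of other genes.

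The strongest change was in the block of Cyp2c37, Cyp2c54 and Cyp2c50. Cyp2c54, an arachidonic acid epoxygenase, measured 1064, 1218, 328, 946 and 697 CPM in the Vec mice and 104, 37.5, 55.2, 41.6 and 83.1 in the Vec+BBR mice. The groups did not overlap, and the log2 fold change was -3.72 ± 0.42 (SE, adjusted p = 2.23e-05), a level 13.2-fold lower. Cyp2c50, another epoxygenase, measured 2806, 2676, 1211, 2252 and 1896 CPM in Vec and 614, 306, 333, 267 and 379.8 in Vec+BBR. Every treated mouse lay below every control, at a log2 fold change of -2.51 ± 0.26 (adjusted p = 1.03e-05). Cyp2c37, which forms hydroxyeicosatetraenoic acids, measured 728, 619, 176, 985 and 452 CPM in Vec and 179.5, 68.8, 116, 98.1 and 97.5 in Vec+BBR. Here Vec replicate 3 lay just below the highest treated mouse, and the log2 fold change was -2.40 ± 0.36 (adjusted p = 0.000306). Counted together, which removes the question of divided reads within the block, the 3 genes stood at 3611 ± 1228 CPM in Vec and 556.5 ± 202 in Vec+BBR (SD, n = 5), a log2 fold change of -2.71 ± 0.29 (SE).

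Cyp2c29, an arachidonic acid epoxygenase, measured 2632, 2102, 1217, 2076 and 2608 CPM in Vec and 870.5, 492, 809, 638 and 684 in Vec+BBR. The groups did not overlap, and the log2 fold change was -1.61 ± 0.25 (adjusted p = 0.000401), a level 3.04-fold lower. Its 2 neighbours were not called. Cyp2c38, an epoxygenase too, measured 89.5, 135, 162, 87.9 and 163 CPM in Vec and 230.2, 132, 172, 179.6 and 187 in Vec+BBR, with a log2 fold change of 0.50 (95% interval 0.06 to 0.93, adjusted p = 0.111). Cyp2c39, which also hydroxylates retinoic acid, measured 14.4, 18.5, 13.0, 20.2 and 19.6 CPM in Vec and 20.5, 11.2, 14.6, 12.3 and 16.6 in Vec+BBR, with a log2 fold change of -0.19 (95% interval -0.56 to 0.18, adjusted p = 0.516). Because Cyp2c29 holds most of the reads of this block, the sum of the 3 genes followed it, with a log2 fold change of -1.35 ± 0.23.

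Cyp2c70, the enzyme that makes muricholic acids and so gives mouse bile its hydrophilic bile acids, measured 382, 322, 166, 212 and 237 CPM in Vec and 129.9, 89.8, 128, 98.1 and 108 in Vec+BBR. Again the groups did not overlap (log2 fold change -1.25 ± 0.21, adjusted p = 0.000739). Cyp2c29, Cyp2c50, Cyp2c54 and Cyp2c70 were the 4 of 10 members whose Vec+BBR mice all lay below the Vec mice, where 4.24% of all genes tested did so (4.7% lay wholly higher). In the remaining block Cyp2c68 fell less, from 382, 427, 258, 353 and 301 CPM in Vec to 284, 165, 264, 226 and 226 (log2 fold change -0.56 ± 0.15, adjusted p = 0.0129), with groups that overlapped. Cyp2c40, which hydroxylates arachidonic acid, measured 69.7, 140.2, 49.4, 139 and 129 CPM in Vec and 65.5, 12.7, 61.0, 34.2 and 79.7 in Vec+BBR, and its log2 fold change of -1.06 ± 0.38 missed the threshold (95% interval -1.85 to -0.26, adjusted p = 0.0646). For Cyp2c67 the means were 225 ± 56.6 and 239 ± 41.0 CPM (log2 fold change 0.09, 95% interval -0.25 to 0.43). The summed block with Cyp2c69 changed by -0.41 ± 0.14 on the log2 scale, a value that the division of reads within the block cannot alter. Without Vec replicate 3 the count of members called was 7, with Cyp2c40 added (-1.25 ± 0.38, adjusted p = 0.0243).

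**Figure D3:**
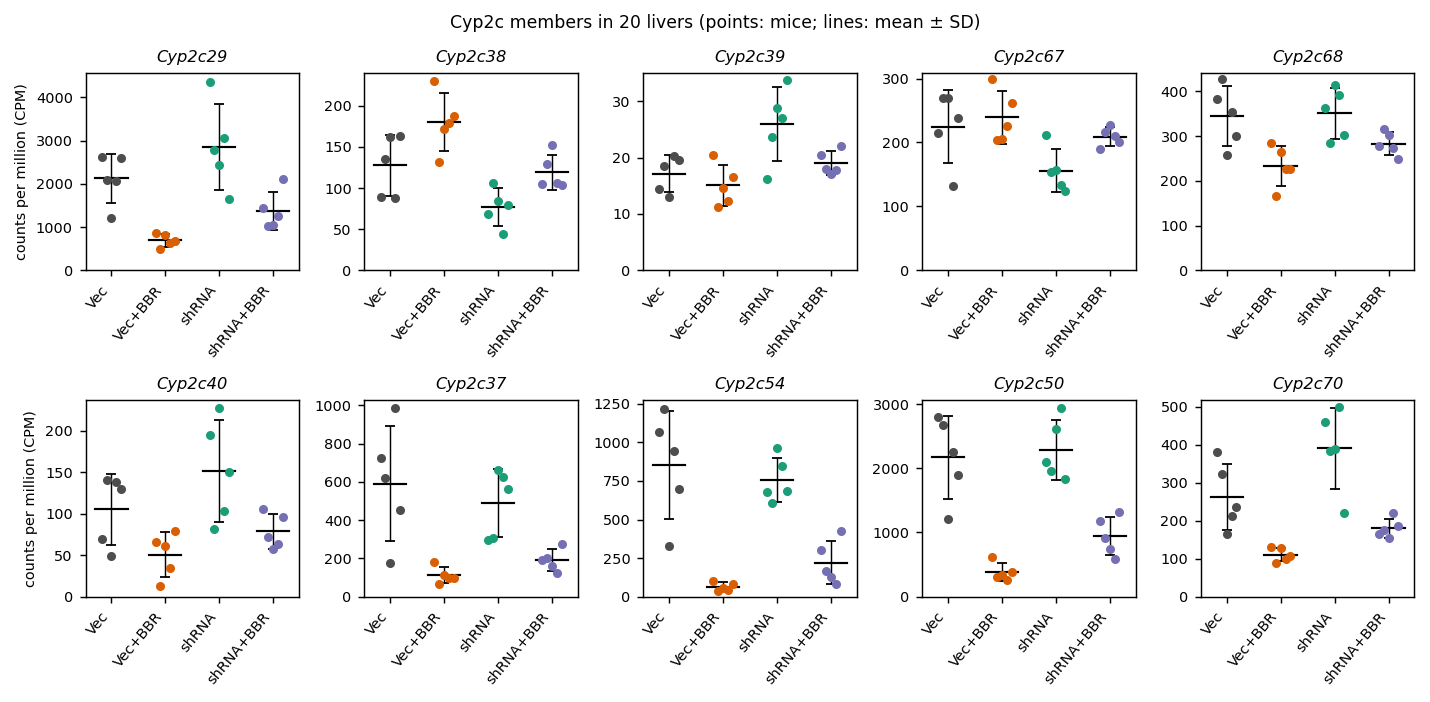
CPM of each member in the 20 livers, in chromosomal order, on linear axes that start at 0. Points are single mice, horizontal lines group means and bars the SD (n = 5). Vec+BBR mice lie below all Vec mice for Cyp2c29, Cyp2c50, Cyp2c54 and Cyp2c70, while the means of Cyp2c38 and Cyp2c67 are not lower than in Vec.

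The upstream sequences of genes that differed in response are set side by side here, from RefSeq on GRCm38.p6. Each line gives the 100 bases before the transcription start that RefSeq annotates, 5′ to 3′ on the strand of the gene, and capitals mark the TATA box letters TATAAA. Cyp2c29 (chr19:39286985-39287084, plus strand), which fell, and Cyp2c38 (chr19:39463076-39463175, minus strand), which was not called, are nearest neighbours. Cyp2c37 (chr19:39992324-39992423, plus strand) and Cyp2c50 (chr19:40089579-40089678, plus strand) fell together. The RefSeq start of Cyp2c29 lies inside the span that GENCODE gives the gene, so the annotations differ on where it begins:

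Cyp2c29: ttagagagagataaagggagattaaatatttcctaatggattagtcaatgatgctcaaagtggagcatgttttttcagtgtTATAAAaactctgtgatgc
Cyp2c38: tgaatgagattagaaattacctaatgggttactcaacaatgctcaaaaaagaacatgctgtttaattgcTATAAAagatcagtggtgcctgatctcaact
Cyp2c37: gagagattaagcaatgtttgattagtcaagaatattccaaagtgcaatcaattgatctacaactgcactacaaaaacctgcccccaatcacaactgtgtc
Cyp2c50: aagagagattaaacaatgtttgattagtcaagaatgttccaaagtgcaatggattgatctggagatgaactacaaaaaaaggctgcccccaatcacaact

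In the RefSeq promoter window, which reaches from before to just after the start and was searched on both strands, TATAAA was found in 13.62% of the 32851 promoters of the table, and in Cyp2c29, Cyp2c38, Cyp2c67, Cyp2c40, Cyp2c70 and 1 of the windows of Cyp2c39. The match in Cyp2c40 lay at 40, after the start, and that in Cyp2c39 at -3, across the start. In Cyp2c70 the match was on the opposite strand. Whether any match acts as a TATA box was not tested. The nuclear receptor hexamer AGGTCA was found in 16.26% of all promoters and in Cyp2c29, Cyp2c70 and the other window of Cyp2c39. In that window the bases before the RefSeq start are chr19:39347246-39347345, between the GENCODE spans of Cyp2c29 and Cyp2c38. GENCODE starts Cyp2c39 at 39510862, so the annotations differ here too. Direct repeats of exactly that hexamer were searched in the spacing bound by PPARs (DR1, in 0.04% of all promoters) and in one bound by CAR and PXR (DR4, in 0.02%), and had no exact match in the windows of 9 members. Cyp2c54 has no entry among these windows.

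The second comparison asks what the knockdown of Pparg does in mice without BBR (shRNA against Vec). It lowered Cyp2c38 and Cyp2c67 and raised Cyp2c39, 3 of 10 members, where 7.91% of all genes tested were called lower and 5.28% higher, 13.2% in all. The median log2 fold change of the members was 0.05 and that of all genes -0.01. Cyp2c38 measured 68.4, 106, 84.4, 44.1 and 79.8 CPM in shRNA, against a range of 87.9 to 163 in Vec (log2 fold change -0.73 ± 0.21, adjusted p = 0.0255). Cyp2c67 measured 211, 153, 157, 133 and 125 CPM in shRNA and 215, 269, 269, 132 and 239 in Vec (-0.53 ± 0.17, adjusted p = 0.0382). Its reads are divided with close copies in all 20 libraries, and the summed block of Cyp2c67, Cyp2c68, Cyp2c40 and Cyp2c69 changed by -0.03 ± 0.14 on the log2 scale, so the fall of Cyp2c67 was not seen in the sum. Cyp2c39 measured 16.2, 23.7, 28.8, 27.0 and 33.8 CPM in shRNA and 14.4, 18.5, 13.0, 20.2 and 19.6 in Vec (0.60 ± 0.18, adjusted p = 0.0302). The 2 groups overlapped for all 10 members, where 3.95% of all genes tested lay wholly higher and 5.01% wholly lower, and all 3 calls were lost without Vec replicate 3, without shRNA replicate 4 and when only these groups were fitted.

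Cyp2c29, Cyp2c70 and the block of Cyp2c37, Cyp2c50 and Cyp2c54 were not called with the knockdown alone. Cyp2c29 measured 4367, 2777, 2430.1, 3062 and 1655 CPM in shRNA, and 4 of the 5 mice lay above the Vec median of 2102, at a log2 fold change of 0.43 (95% interval -0.08 to 0.93, adjusted p = 0.257). Cyp2c70 measured 461, 383, 389.8, 499 and 219.7 CPM (0.57, 95% interval 0.14 to 0.99, adjusted p = 0.0722), and it was called higher under 4 of 28 alternative settings, among them DESeq2 (adjusted p = 0.0407). The block of Cyp2c37, Cyp2c50 and Cyp2c54 summed to 3535 ± 729 CPM against 3611 ± 1228 in Vec (SD), a log2 fold change of -0.03 ± 0.27. Within it Cyp2c50 stood at 2289 ± 468 CPM (0.08, 95% interval -0.44 to 0.59), Cyp2c54 at 755.6 ± 145 (-0.17, 95% interval -0.95 to 0.61) and Cyp2c37 at 489.9 ± 177 (-0.27, 95% interval -0.99 to 0.44). For Cyp2c68 the mean was 350.4 ± 55.9 CPM (0.03, 95% interval -0.28 to 0.33) and for Cyp2c40 it was 151 ± 61.1 (0.52, 95% interval -0.26 to 1.31).

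The third comparison asks what the knockdown does in mice on BBR (shRNA+BBR against Vec+BBR). Cyp2c29, Cyp2c50, Cyp2c54 and Cyp2c70 were higher with the knockdown and no member was lower, where 3.31% of all genes tested were called higher and 4.82% lower, 8.13% in all. The median log2 fold change was 0.67 over the members and 0.00 over all genes. Vec+BBR is the control of this comparison and the treated group of the first, so the 2 share 5 mice, and a low value in those mice enters both. Cyp2c54 measured 299.7, 163, 128, 84.4 and 423 CPM in shRNA+BBR, and 4 of the 5 mice lay above the Vec+BBR range of 37.5 to 104 (log2 fold change 1.77 ± 0.39, adjusted p = 0.00846). Cyp2c50 measured 1185, 909.5, 742, 588 and 1312 CPM, and 4 of the 5 mice lay above the highest Vec+BBR mouse at 614 (1.32 ± 0.25, adjusted p = 0.0037). Cyp2c29 measured 1436, 1033, 1054, 1250.4 and 2114 CPM, all above the Vec+BBR range of 492 to 870.5 (0.98 ± 0.25, adjusted p = 0.0177). Cyp2c70 measured 164, 177, 155, 219 and 187 CPM, all above the Vec+BBR range of 89.8 to 129.9 (0.70 ± 0.21, adjusted p = 0.0378).

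Cyp2c29 and Cyp2c70 were the 2 of 10 members with no overlap, and 3.28% of all genes tested lay wholly higher and 5.19% wholly lower in this comparison. The call of Cyp2c29 was lost without shRNA+BBR replicate 5, which had the highest Cyp2c29 of its group (0.77 ± 0.24, adjusted p = 0.0569). It was also lost without Vec+BBR replicate 2 (0.89 ± 0.26, adjusted p = 0.0514). The call of Cyp2c70 was lost without any of 7 of the 10 mice compared, with adjusted p up to 0.0892. Of the other members, Cyp2c37 measured 191, 200.3, 162, 124 and 276 CPM in shRNA+BBR (0.77, 95% interval 0.05 to 1.49, adjusted p = 0.176) and Cyp2c38 105, 129, 152, 106 and 104 CPM (-0.60, 95% interval -1.03 to -0.16, adjusted p = 0.0803). The block of Cyp2c37, Cyp2c50 and Cyp2c54 summed to 1358 ± 489 CPM against 556.5 ± 202 (SD), a log2 fold change of 1.30 ± 0.28. The log2 fold changes of Cyp2c39 (0.34 ± 0.18), Cyp2c40 (0.64 ± 0.38), Cyp2c67 (-0.19 ± 0.16) and Cyp2c68 (0.28 ± 0.15) missed the threshold.

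The fourth comparison asks what BBR does when Pparg is knocked down (shRNA+BBR against shRNA). BBR lowered Cyp2c29, Cyp2c37, Cyp2c50, Cyp2c54 and Cyp2c70 and raised Cyp2c38, with 7.28% of all genes tested called lower and 8.37% higher, 15.7% in all. The median log2 fold change was -1.0 over the members and 0.01 over all genes. Cyp2c54 went from 679.7, 605, 961, 849 and 683 CPM in shRNA to between 84.4 and 423 in shRNA+BBR (-1.78 ± 0.39, adjusted p = 0.00767). Cyp2c50 went from 2104, 1954, 2614, 2936 and 1838 CPM to between 588 and 1312 (-1.27 ± 0.25, adjusted p = 0.00489). Cyp2c37 went from 294, 305, 660.3, 628 and 562 CPM to between 124 and 276 (-1.36 ± 0.35, adjusted p = 0.0164). These 3 genes and Cyp2c70 (-1.11 ± 0.21, adjusted p = 0.0043) did not overlap between the groups, as was so in the lower direction for 5.58% of all genes tested and in the higher direction for 5.79%. Cyp2c29 overlapped through shRNA replicate 5 and shRNA+BBR replicate 5 (-1.05 ± 0.25, adjusted p = 0.0108).

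The gain of Cyp2c38 with BBR was 0.64 ± 0.21 (adjusted p = 0.045), a call close to the threshold that was lost under 12 of 28 alternative settings. The other members were not called. Their log2 fold changes were -0.44 (95% interval -0.81 to -0.08) for Cyp2c39, -0.94 (-1.73 to -0.15) for Cyp2c40, 0.42 (0.08 to 0.77) for Cyp2c67 and -0.31 ± 0.15 (SE) for Cyp2c68.

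**Figure D4:**
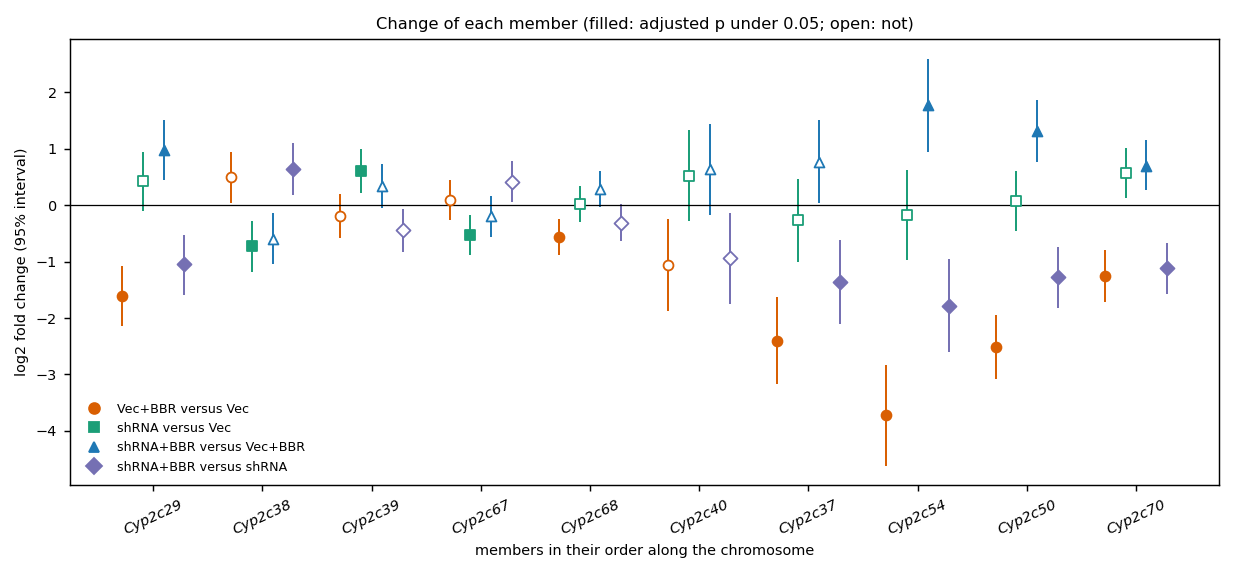
Log2 fold change of each member in the 4 comparisons (y axis), with 95% intervals as vertical lines, in chromosomal order. Filled marks passed an adjusted p of 0.05 in edgeR and open marks did not. Cyp2c54 has the lowest value, at -3.72 for Vec+BBR against Vec, and Cyp2c38 and Cyp2c67 are the 2 members above 0 in that comparison.

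Whether the BBR effect differed between the vectors was tested as the difference of the log2 fold changes, BBR in shRNA minus BBR in Vec. No member passed, and 0.146% of all genes tested did, 18 genes, 0.0729% in each direction. By the unadjusted p, 3 members were under 0.05 and 2281 of the 12342 genes were. These members were Cyp2c54 (difference 1.94 ± 0.54, 95% interval 0.82 to 3.06, adjusted p = 0.102), Cyp2c50 (1.24 ± 0.35, 95% interval 0.51 to 1.97, adjusted p = 0.104) and Cyp2c37 (1.04 ± 0.49, 95% interval 0.02 to 2.06, adjusted p = 0.261). Summed, their block differed by 1.33 ± 0.39. DESeq2 called Cyp2c50 (adjusted p = 0.0264) and Cyp2c54 (adjusted p = 0.0375), and limma-voom called neither. For Cyp2c29 the difference was 0.55 (95% interval -0.16 to 1.27, adjusted p = 0.389), and for Cyp2c70 it was 0.14 (95% interval -0.46 to 0.74). The differences were 0.14 ± 0.30 for Cyp2c38, -0.25 ± 0.25 for Cyp2c39, 0.11 ± 0.53 for Cyp2c40, 0.34 ± 0.23 for Cyp2c67 and 0.26 ± 0.21 for Cyp2c68 (SE).

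Among the 20 livers, the members that varied most alike were Cyp2c50 and Cyp2c54, followed by Cyp2c37 and Cyp2c54, all of the same block. The likeness was measured as Pearson's r of log2 CPM over the 20 libraries, which share the 4 groups, and again after the group means were removed. Cyp2c50 and Cyp2c54 gave r = 0.988 (0.937 within groups) and Cyp2c37 and Cyp2c54 gave 0.940 (0.782). The remaining pair of the block, Cyp2c37 and Cyp2c50, gave 0.928 (0.784), and divided reads enter all these values. For Cyp2c29 the member most alike was Cyp2c70, at r = 0.936 (0.726 within groups), and these 2 genes share no divided reads. Cyp2c38 and Cyp2c67 were most like each other (0.768, 0.559 within groups). The closest match of Cyp2c68 was Cyp2c37 (0.841), that of Cyp2c40 was Cyp2c68 (0.786) and that of Cyp2c39 was Cyp2c40 (0.724).

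Outside the cluster, the 5 tested genes most like Cyp2c29 were Enpep, an aminopeptidase (r = 0.940, 0.811 within groups), Cyp4f14, a fatty acid hydroxylase (0.921, 0.606), Lrtm1 (0.919, 0.589), Upp2, a uridine phosphorylase (0.909, 0.731), and the P450 Cyp3a44 (0.902, 0.653). They are the highest of the 12342 genes tested, outside the members. Cyp3a44 averaged 0.649 CPM in Vec and 0.0621 in Vec+BBR, the latter under the value of 3 counts in any library, so its r rests partly on very low counts.

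Other Cyp2c genes of the mouse gave mixed values. Cyp2c23, an arachidonic acid epoxygenase encoded some distance away at chr19:44005022-44029208, measured 382, 551, 221, 244 and 312 CPM in Vec and 147, 82.2, 81.8, 75.0 and 106 in Vec+BBR. The groups did not overlap (log2 fold change -1.80 ± 0.26, adjusted p = 0.000261), and with the knockdown on BBR it was higher by 1.02 ± 0.26 (adjusted p = 0.0188). Its change with BBR in knockdown mice was -0.65 ± 0.26 (adjusted p = 0.0871). Cyp2c69, a close copy of Cyp2c40 with fractional counts in all 20 libraries, fell from 23.9 ± 16.5 to 4.66 ± 3.13 CPM with BBR in Vec mice (SD, -2.36 ± 0.53, adjusted p = 0.00562) and from 26.4 ± 11.2 to 5.72 ± 2.59 in shRNA mice (-2.22 ± 0.52, adjusted p = 0.0112). Cyp2c55 stood between 2.54 and 10.3 CPM and was called in no comparison. Cyp2c65 had at most 4 counts in a library and Cyp2c66 had 0 in all 20, and neither was tested.

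Partners and regulators of the enzymes were counted next. Of all genes tested, 7.88% were called lower and 7.58% higher with BBR in Vec mice, and 7.91% and 5.28% with the knockdown alone. With the knockdown on BBR these shares were 4.82% and 3.31%, and with BBR in shRNA mice 7.28% and 8.37%. Of 13 genes of electron supply and haem synthesis, 1 fell and 2 rose with BBR in Vec mice (median log2 fold change -0.05), where 15.5% of all genes tested were called. Por, the P450 reductase, went from 978 to 508.5 CPM (-0.94 ± 0.17, adjusted p = 0.00114), and it fell again with BBR in shRNA mice, from 1023 to 675 CPM (-0.60 ± 0.17, adjusted p = 0.0239). Uros, of haem synthesis, rose by 0.41 ± 0.12 in Vec mice (adjusted p = 0.0199) and Cyb5b, a cytochrome b5, by 0.37 ± 0.12 (adjusted p = 0.0343). With the knockdown, Uros, Fech and Alad fell in mice without BBR, with log2 fold changes of -0.57, -0.29 and -0.36. On BBR, Fech, Uros and Cyb5b were lower with the knockdown, by -0.44, -0.59 and -0.53, and Cyb5r3 rose with BBR in shRNA mice (0.67 ± 0.17, adjusted p = 0.0153).

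Of 17 tested regulators none was called with BBR in Vec mice (median -0.05) or with the knockdown on BBR (median -0.02). Hnf4a, the hepatocyte nuclear receptor, stood at 482 CPM in Vec and 409 in Vec+BBR (-0.24 ± 0.13, adjusted p = 0.223), and Rxra at 279 and 270.3 (-0.05 ± 0.14). With the knockdown alone the transcription factor Onecut1 rose from 3.99 to 9.66 CPM (1.27 ± 0.29, adjusted p = 0.00634), the coactivator Ncoa1 rose by 0.46 ± 0.10 and Cebpa fell by 0.45 on the log2 scale (adjusted p = 0.00833). With BBR in shRNA mice 4 of the 17 fell, among them Ncoa1 (-0.36), Onecut1 (-0.88) and Rxra (-0.43). Of all genes tested 7.28% fell in that comparison.

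Of 9 tested genes of arachidonic acid release and epoxide metabolism, 2 fell with BBR in Vec mice, where 7.88% of all genes tested did. Cyp4f14 went from 181 to 46.5 CPM (-1.96 ± 0.27, adjusted p = 0.000153), and Ephx1, the microsomal epoxide hydrolase, changed by -0.30 ± 0.09 (adjusted p = 0.0362). Cyp4f14 was also called higher with the knockdown on BBR (1.11 ± 0.26, adjusted p = 0.0125) and lower with BBR in shRNA mice (-1.17 ± 0.26, adjusted p = 0.00857). Ephx2, the soluble hydrolase, stood at 836 CPM in Vec and 734 in shRNA (-0.19 ± 0.10, adjusted p = 0.243).

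Targets of CAR and PXR outside the cluster went in both directions. Of 17 tested, 4 fell and 3 rose with BBR in Vec mice (median 0.01), where 7.88% and 7.58% of all genes tested did. Ces2a, a carboxylesterase, fell by 1.07 ± 0.15, Cyp3a25 by 0.69 ± 0.15 and Papss2 by 0.67 ± 0.17 on the log2 scale, and Gstm1, a glutathione transferase, rose from 2688 to 3785 CPM (0.49 ± 0.15, adjusted p = 0.0332). With BBR in shRNA mice 5 fell and 3 rose, against 7.28% and 8.37% of all genes tested. With the knockdown alone 3 fell and 1 rose (7.91% and 5.28% of all genes), and with the knockdown on BBR 2 fell and 1 rose (4.82% and 3.31%). Cyp2b10, the usual CAR marker, was the 1 called higher with the knockdown in both settings, from 78.2 to 143 CPM without BBR (0.87 ± 0.26, adjusted p = 0.0315) and from 47.7 to 88.2 with it (0.88 ± 0.26, adjusted p = 0.0403). The 3 that fell without BBR were Aldh1a1 (-0.65 ± 0.12, adjusted p = 0.000759), Abcc3 (-0.46 ± 0.15) and Aldh1a7 (-0.39 ± 0.12). The 2 that fell on BBR were Abcc3 (-0.88 ± 0.15, adjusted p = 0.00124) and Cyp2b9 (-0.56 ± 0.12, adjusted p = 0.00592).

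Genes known for higher expression in female liver were also counted, since several Cyp2c genes belong to them. Of 17 tested outside the cluster, 6 fell and none rose with BBR in Vec mice (median -1.27), where 7.88% and 7.58% of all genes tested did. In shRNA mice 7 fell and none rose with BBR (median -1.27), against 7.28% and 8.37% of all genes tested. Cyp3a41a, a P450 of the Cyp3a family, went from 224 to 3.47 CPM with BBR in Vec mice (-6.01 ± 0.84, adjusted p = 0.000183). Sult2a2, a sulfotransferase, went from 71.1 to 6.15 CPM (-3.53 ± 0.69, adjusted p = 0.002). Cyp3a44 averaged 0.649 CPM in Vec, and its Vec+BBR mean of 0.0621 CPM lies under the value of 3 counts in any library, so no fold is given. With the knockdown alone 3 of the 17 rose and none fell, where 5.28% and 7.91% of all genes tested did. With the knockdown on BBR 5 were called higher and 1 lower, against 3.31% and 4.82% of all genes tested. Cyp3a41a was higher there, at 94.5 against 3.47 CPM (4.76 ± 0.80, adjusted p = 0.00142). Some of these genes have near copies, Cyp3a41a among them, and their reads may be divided, and Cyp2b9, Cyp2b13 and Cyp3a16 are in both this list and that of CAR and PXR targets.

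Of 15 tested genes with higher expression in male liver, 3 fell and none rose with BBR in Vec mice (median -0.22). Of all genes tested 7.88% fell and 7.58% rose in that comparison. The 3 that fell were Serpina1e (-0.85 ± 0.10, adjusted p = 5.49e-05), Cyp7b1 (-1.34 ± 0.20, adjusted p = 0.000309) and Slco1a1 (-3.01 ± 0.96, adjusted p = 0.0378). Slco1a1 averaged 2.15 CPM in Vec and 0.263 in Vec+BBR, so its fold change rests on very low counts. With the knockdown alone 6 fell and none rose (median -0.68), where 7.91% and 5.28% of all genes tested did. Among the 6 was Cyp4a12a, a fatty acid hydroxylase, which went from 1001 to 318 CPM (-1.65 ± 0.29, adjusted p = 0.000794). With BBR in shRNA mice 4 rose and 2 fell, against 8.37% and 7.28% of all genes tested. With the knockdown on BBR none was called, against 8.13% of all genes tested.

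Among genes known for expression around the central vein, outside the cluster, 9 of 12 fell and none rose with BBR in Vec mice (median -0.75). Of all genes tested 7.88% fell and 7.58% rose. Oat, ornithine aminotransferase, went from 3064 to 755 CPM (-2.02 ± 0.33, adjusted p = 0.000674), Cyp1a2 from 939.8 to 310.1 (-1.60 ± 0.25, adjusted p = 0.00046) and Rgn from 1104 to 497.5 (-1.15 ± 0.17, adjusted p = 0.000306). The knockdown alone lowered 6 of the 12 (median -0.56), where it lowered 7.91% of all genes tested. Cyp2e1, the ethanol-oxidising P450, went from 9449.8 to 4282 CPM (-1.14 ± 0.18, adjusted p = 0.000195) and Glul, glutamine synthetase, from 900.5 to 577 (-0.64 ± 0.11, adjusted p = 0.000669). With the knockdown on BBR none was called, and with BBR in shRNA mice Tbx3 rose and Rgn fell. Of all genes tested 8.13% and 15.7% were called in these comparisons. Of 9 genes known for expression around the portal vein, 5 fell and 1 rose with BBR in Vec mice (median -0.65). The shares of all genes tested are again 7.88% and 7.58%. Ass1 (-1.08 ± 0.20, adjusted p = 0.0012) and Cps1 (-1.10 ± 0.23, adjusted p = 0.00294), both of the urea cycle, fell and Hsd17b13, a lipid droplet protein, rose (0.98 ± 0.12, adjusted p = 5.69e-05). Calls among portal genes numbered 0 with the knockdown alone, 2 higher with the knockdown on BBR and 2 lower with BBR in shRNA mice. The matching shares of all genes tested were 13.2% in either direction, 3.31% higher and 7.28% lower.

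Marker genes of hepatocytes and of other liver cells moved with BBR as well. Beside the marker counts here and in the next paragraph, 15.5% of all genes tested were called with BBR in Vec mice and 15.7% in shRNA mice. With the knockdown these shares were 13.2% without BBR and 8.13% on BBR. The summed level of 5 hepatocyte markers lay between 110336 and 142285 CPM in Vec, 84079 and 118955 in Vec+BBR, 105896 and 121787 in shRNA, and 97742 and 116987 in shRNA+BBR. Of these 5, Serpina1c was called lower with BBR in both settings (-1.52 ± 0.21 in Vec mice and -0.71 ± 0.21 in shRNA mice) and no other call was made. The sum of 6 stellate cell markers lay between 114 and 251 CPM in Vec and between 264 and 292 in Vec+BBR, without overlap, and Col1a1 (1.18 ± 0.31, adjusted p = 0.0148) and Col3a1 (1.03 ± 0.33, adjusted p = 0.0379) rose. In shRNA it lay between 144.5 and 199.8 CPM, and in shRNA+BBR between 215 and 339.7, with 3 of the 6 called higher, Col1a1 among them (1.70 ± 0.33, adjusted p = 0.00463). With the knockdown alone Col1a1 fell (-1.12 ± 0.33, adjusted p = 0.0303). The sum of 5 duct cell markers lay between 24.0 and 45.3 CPM in Vec and between 50.3 and 96.6 in Vec+BBR, with Spp1 called higher (1.00 ± 0.24, adjusted p = 0.00745). It lay between 25.9 and 34.4 CPM in shRNA and between 31.0 and 87.7 in shRNA+BBR, again with Spp1 called higher (0.92 ± 0.24, adjusted p = 0.0164). Most of this duct sum was Spp1 itself, with means of 30.5 CPM in Vec and 61.1 in Vec+BBR. Krt19, Krt7, Epcam and Sox9 stood far lower in each group and were not called with BBR in either setting. The duct sum therefore followed Spp1, and a shift of duct cells was not tested. For 5 endothelial markers the ranges were 69.8 to 95.2 CPM in Vec, 87.9 to 114.8 in Vec+BBR, 99.6 to 130.4 in shRNA and 83.5 to 114.2 in shRNA+BBR, with 2 markers higher with BBR in Vec mice, 3 higher with the knockdown alone, none called with the knockdown on BBR and 2 lower with BBR in shRNA mice.

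For 6 macrophage markers the sums were 74.2 to 189.7 CPM in Vec and 92.3 to 140.0 in Vec+BBR, with Marco (-3.03 ± 0.62, adjusted p = 0.00287) and Timd4 (-0.78 ± 0.25) lower and Cd68 (0.64 ± 0.20) higher, and they were 85.4 to 123.0 in shRNA and 99.2 to 148.0 in shRNA+BBR. Cd68 fell with the knockdown alone (-0.72 ± 0.21, adjusted p = 0.0274) and rose with BBR in shRNA mice (0.88 ± 0.21, adjusted p = 0.0112). Of 5 intestinal markers 1 was tested, Fabp2, which the liver also expresses and which was called higher with BBR in shRNA mice (0.62 ± 0.20, adjusted p = 0.0441), and the defining gene Cdx2 was at 0 in all 20 libraries. The part of these shifts in the changes of the Cyp2c genes was not tested.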

How the data were processed

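PolyA RNA from liver tissue of 20 mice was sequenced on an Illumina NovaSeq instrument, 1 library per mouse. Per the file headers, the authors deposited an expected count (reads that fit several genes divided between them, not normalized) and an FPKM value (scaled by transcript length and library size) per gene. The submitters' processing notes name the build mm10. The aligner and counting program are not given in the sources used here. Groups came from the labels, which read control, benzbromarone, PPAR knockdown, and PPAR knockdown with benzbromarone. Vector, dose, age and genotype came from the methods of the study.

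Counts were rounded, filtered with filterByExpr (minimum count 10, total 15) and scaled by TMM (0.873 to 1.14). The quasi-likelihood test of edgeR 4.0.16 (R 4.3.3) was fitted to the 4 groups together, without covariates, with Benjamini-Hochberg adjustment over 12342 genes. SEs were taken from the log2 fold change and its F statistic, and 95% intervals from the t distribution with the degrees of freedom of the fit. CPM are TMM-scaled. DESeq2 1.42.0 and limma 3.58.1 were alternatives. The fit was tested on simulated data.

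Every member is named in every comparison. From each gene list at most 4 genes were named per comparison, the called ones with the smallest p, or, where none was called, the 2 with the highest mean count. Some genes that this rule names are not reported here. The members and lists were chosen with earlier results of these data known. Transcripts and positions came from GENCODE M21 (GRCm38) and promoters from RefSeq.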

Additional observations from a re-analysis of the deposited data

How the results depend on the processing

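The falls of Cyp2c29, Cyp2c37, Cyp2c50, Cyp2c54, Cyp2c68 and Cyp2c70 with BBR in Vec mice kept their call under all 28 alternatives, as did Cyp2c50 and Cyp2c54 with the knockdown on BBR, and no called member changed sign apart from sums with neighbours. Fitting only the groups compared gave 1178 genes for Vec+BBR against Vec (1908 with all 4 groups) and 0 members for shRNA against Vec. For the difference of the BBR effects DESeq2 called 2 members and 338 genes, limma-voom 11 genes and library totals alone 30 genes, against 18. With library totals alone the medians over all genes shifted, and the split of higher and lower calls was 1831 and 459 for Vec+BBR against Vec (936 and 972 by TMM) and 1098 and 559 for shRNA against Vec (652 and 976). The causes were not tested.

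Leaving out each mouse in turn gave 6 to 7 members and 1237 to 2395 genes for Vec+BBR against Vec, 0 to 3 and 1015 to 2284 for shRNA against Vec, 2 to 4 and 538 to 1217 for shRNA+BBR against Vec+BBR, 4 to 7 and 661 to 2527 for shRNA+BBR against shRNA, and 0 to 1 and 5 to 122 for the difference of the BBR effects. For shRNA against Vec the count of members was 0 without Vec replicate 3 or shRNA replicate 4, and 1 without Vec replicate 2, Vec replicate 5 or shRNA replicate 3. With the knockdown on BBR it was 2 without Vec+BBR replicate 2 or shRNA+BBR replicate 5. The difference of effects gained Cyp2c50 without Vec+BBR replicate 1 (1.5, adjusted p = 0.0435 by edgeR). Cyp2c70 was called in shRNA against Vec by DESeq2, with library totals alone, and without Vec replicate 1 or shRNA replicate 5 (adjusted p from 0.0163 to 0.0407). Cyp2c37 lost its call with BBR in shRNA mice without shRNA+BBR replicate 3 (adjusted p = 0.0527). Uncalled values near 0 crossed it in these fits, over -0.05 to 0.16 for Cyp2c67 with BBR in Vec mice, -0.07 to 0.19 for Cyp2c50 and -0.06 to 0.13 for Cyp2c68 in shRNA against Vec, and, for the difference of effects, -0.01 to 0.28 for Cyp2c38, -0.12 to 0.34 for Cyp2c40 and -0.02 to 0.28 for Cyp2c70.

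Counts summed with close neighbours turned the sign of low members that share a sum with a more abundant one. In the order of the 4 comparisons the sum with Cyp2c29 and Cyp2c39 gave -1.35, 0.38, 0.78 and -0.96 for Cyp2c38, and 0.39 for Cyp2c39 in the difference of effects. The sum with Cyp2c40, Cyp2c68 and Cyp2c69 gave -0.41, 0.14 and -0.24 for Cyp2c67 with BBR in Vec mice, with the knockdown on BBR and with BBR in shRNA mice. In shRNA against Vec the sums that hold Cyp2c50 and that hold Cyp2c40, Cyp2c67 and Cyp2c68 were both at -0.03, against -0.53 for Cyp2c67 alone.

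Mice of equal number in different groups did not deviate together (correlations between -0.302 and 0.262), so the numbers were not taken as a pairing. With the replicate number as a block, 7, 3, 4, 6 and 0 members and 1747, 1495, 940, 1819 and 21 genes were called in the order of the 5 comparisons, and Cyp2c40 was gained with BBR in Vec mice (adjusted p = 0.048 by edgeR). Deposited FPKM in place of CPM moved none of 30 group ratios by more than 1 SD. No group of 5 mice held a member value far enough from the others to be singled out. Total counts of 17432904 or more per library limit Cyp2c39 most among the members.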
